A study of Mus musculus with 6 samples.

Results

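Hspb8, a small heat shock protein gene, was examined together with 9 further heat shock chaperone genes in mouse gastric corpus organoids that overexpressed Erbb2. The 10 genes were Hspb8, Hspb1, Bag3, Hspa1a, Hspa1b, Hspa8, Hsph1, Dnajb1, Hsp90aa1 and Hspe1, out of 25528 genes in the count tables. They were taken as a list by symbol, and Hspb8 was selected on its own counts in this contrast, because its transcript was lower in the overexpressing organoids. Its difference between the groups is therefore described below with no test. Each of the 10 genes passed the filter on low counts, which left 12593 genes. Hspe1 is listed with the cytosolic chaperones although its product works in mitochondria.

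Heat shock chaperones hold unfolding proteins and refold them or pass them on for degradation. Small heat shock proteins such as HSPB8 and HSPB1 bind unfolding chains without using ATP, HSP70 proteins refold them with J-domain partners and nucleotide exchange factors, and HSP90 acts on clients that are nearly folded. HSPB8 binds the co-chaperone BAG3, which links it to HSP70 and to the ubiquitin ligase CHIP, and this complex sends damaged proteins such as filamins to autophagy, best known from muscle. Heat shock factor 1 switches on many of these genes, and in the gastric mucosa HSP70 is known for its induction by irritants.

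The overexpressing group consisted of 3 polyA RNA libraries from 3D cultures of stomach corpus organoids with the genotype label Erbb2 overexpression. The control group consisted of 3 libraries from corpus organoids transduced with an empty vector. The labels number the libraries 1 to 3 in each group and do not say whether they came from separate cultures, animals or clones, nor what the Erbb2 construct holds. What the p-values measure is thus the spread among these 6 libraries, which may be technical.

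Library totals lay between 18735853 and 22767455 counts. Erbb2 had 7847, 6160 and 6851 counts in overexpressing libraries 1, 2 and 3, against 2693, 2913 and 2965 counts in control libraries 1, 2 and 3. The first principal component of all tested genes held 57.8% of the variance and placed the replicate 3 libraries of both groups, at -50.1 and -38.8, apart from the other 4. These ranged from -1.71 in overexpressing replicate 1 to 50.1 in control replicate 2. Libraries with the same number deviated together from their group means, with correlations across genes of 0.333, 0.660 and 0.707 for numbers 1, 2 and 3. The numbers were therefore treated as pairs in a second fit, here called the fit with the block, which is given beside the fit with the group alone. Without the block edgeR called 0 of the 12593 genes (0%) at a Benjamini-Hochberg adjusted p under 0.05, while 419 genes (3.33%) had an unadjusted p under 0.05. With the block it called 389 (3.09%), of which 298 (2.37%) were higher and 91 (0.723%) lower in the overexpressing organoids.

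Heat shock factors bind DNA at inverted repeats of the letters GAA, so the promoter windows of the genes were searched for them to show where such letters lie. RefSeq windows of build GRCm38.p6, running from 250 bases before to 50 bases after the transcript start, were at hand for 8 of the 10 genes; Hspa8 and Hsp90aa1 had none. GAANNTTC, which reads the same on both strands, was in 7 of the 8 genes. By window, it was in 8 of their 10 windows and in 7.86% of all 32851 windows. TTCNNGAA, likewise the same on both strands, was in 2 genes (3 of the 10 windows) and in 8.52% of all windows. GAANNTTCNNGAA, searched on both strands and overlapping with the shorter motifs, was in 2 genes (3 of the 10 windows) and in 0.603% of all windows. The 10 windows are not independent. Those of Hsph1 overlap and hold the same matches, which are counted once per window, and those of Hspa1a and Hspa1b have nearly the same upstream sequence. The letters GAAGTTTC occurred in the windows of Hspb8, Hspb1 and Bag3, and in 1.21% of all windows when searched on both strands; this variant was chosen after the matches were seen. A match is a description of letters and not a binding site. Dnajb1 held none of these motifs in its windows. The lines below give 30 bases around a match, 5′ to 3′ in the direction of the gene, with the match in capitals, so that the letters can be compared between genes. Hspb1 has 2 matches, and its second holds the same letters as the first 8 of the printed Hspe1 match. Hsph1 and Hspe1 hold further matches beside those printed.
Hspb8: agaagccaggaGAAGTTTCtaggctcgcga
Hspb1, first match: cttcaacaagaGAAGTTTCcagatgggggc
Hspb1, second match: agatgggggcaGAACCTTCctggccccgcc
Bag3: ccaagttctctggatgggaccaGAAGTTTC
Hspa1a and Hspa1b: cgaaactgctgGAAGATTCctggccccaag
Hsph1: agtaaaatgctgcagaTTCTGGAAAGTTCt
Hspe1: tccgttctaGAACCTTCCGGAAggccccgc
The Hspb8 match lay at bases 3 to 10 from the start in the window chr5:116422815-116423114 on the minus strand, and the Bag3 match at bases 43 to 50 in chr7:128523333-128523632 on the plus strand. The Hspb1 matches lay at bases -117 to -110 and -97 to -90 in chr5:135887669-135887968 on the plus strand. Those of Hspa1a and Hspa1b lay at bases -104 to -97 in chr17:34972107-34972406 and chr17:34959189-34959488, both on the minus strand. The Hsph1 match lay at bases 37 to 49 in chr5:149636287-149636586 on the minus strand, and the Hspe1 match at bases -84 to -72 in chr1:55087898-55088197 on the plus strand.

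Hspb8 (ENSMUSG00000041548) was a scarce transcript and stood lower in the overexpressing organoids in each pair of libraries. It had 15, 32 and 12 counts in overexpressing libraries 1, 2 and 3, against 51, 83 and 57 counts in control libraries 1, 2 and 3. Scaled to counts per 1000000 (CPM), this was 0.654, 1.81 and 0.500 CPM in the overexpressing libraries and 2.36, 4.68 and 2.45 CPM in the controls. The groups did not overlap, and replicate 2 was the highest library in each group. The means were 0.989 ± 0.717 CPM in overexpressing organoids and 3.16 ± 1.31 CPM in controls (SD, n = 3 each). The log2 difference within pairs was -1.85, -1.37 and -2.30 for replicates 1, 2 and 3. On the log2 scale the fitted change was -1.73, or 3.32-fold lower, and its standard error (SE) was 0.54 without the block and 0.34 with it. It was -2.43 when overexpressing replicate 2 was left out and -1.36 when control replicate 2 was left out. In these bulk libraries, fewer cells that express Hspb8 and less Hspb8 RNA per cell cannot be told apart. No stretch of 50 bases of its principal transcript occurred in a transcript of another annotated gene. Near matches and copies outside the annotation were not searched.

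The variation of Hspb8 over the replicate numbers, which had no part in its choice, missed the threshold. On the log2 scale replicate 2 minus replicate 1 was 1.12 and replicate 3 minus replicate 1 was -0.04 (edgeR quasi-likelihood test of the number, adjusted p = 0.0528).

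**Figure D1:**
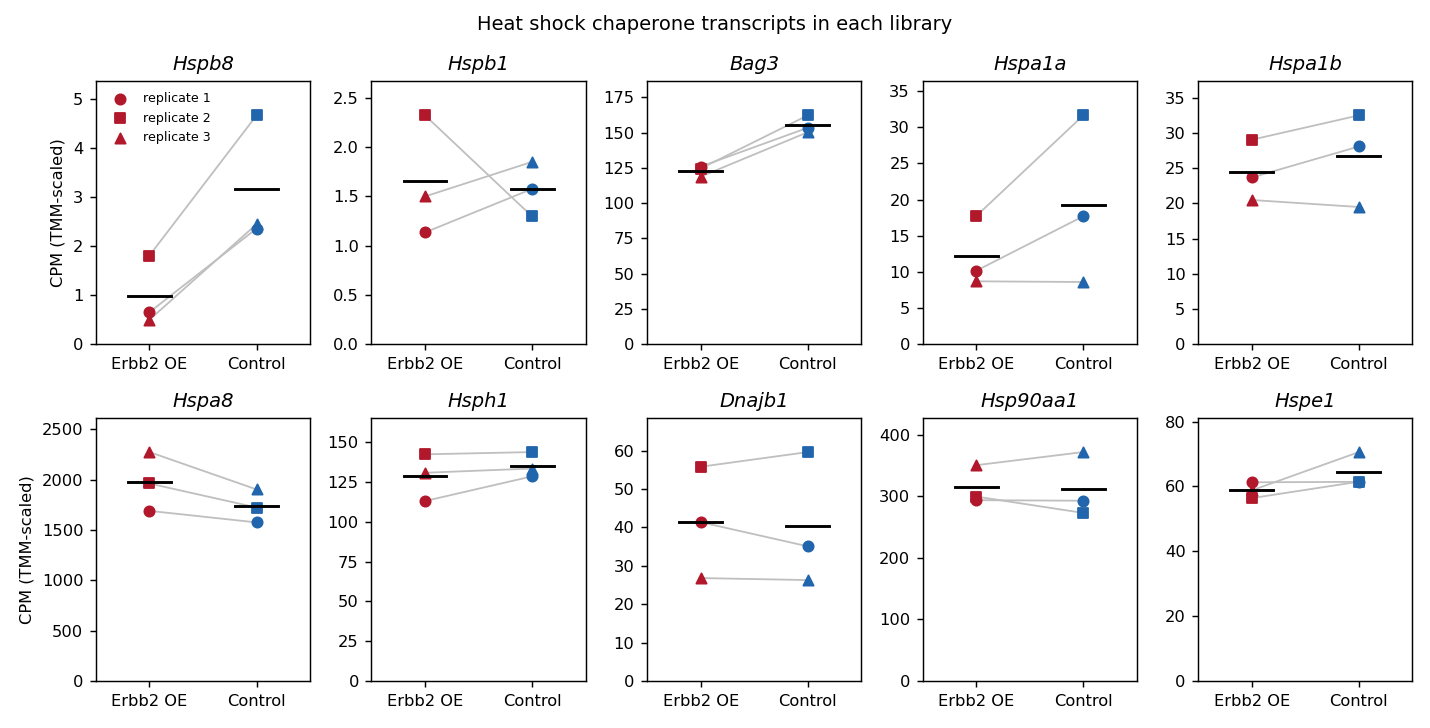
CPM (vertical axes, from 0, TMM-scaled) of the 10 chaperone genes in each library, with overexpressing libraries (red) left of controls (blue), grey lines joining libraries of the same number and bars at group means. Hspb8 and Bag3 lie lower in all overexpressing libraries, Hspe1 does so by a small margin, and the groups overlap for the other genes.

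The plot of CPM by library shows that among the remaining 9 genes the separation seen for Hspb8 recurred for its partner Bag3 and was marginal for Hspe1. With Hspb8, this makes 3 of 10 genes whose overexpressing libraries all lay below the controls, and 0 whose overexpressing libraries all lay above; of all tested genes 8.75% separated the groups, 4.48% downwards and 4.27% upwards. Hspb8 was chosen for this and adds nothing to the count. Of the 9 genes other than Hspb8, edgeR called 0 in either direction without the block, where all 9 adjusted p-values were 1 and 1 gene, Bag3, had an unadjusted p under 0.05. DESeq2 and limma voom also called 0 of them without the block. With the block 1 of the 9, Bag3, was called lower and 0 higher, against the 0.723% and 2.37% of all genes given above. In that fit the 9 genes had a median log2 fold change of -0.08, beside -0.01 for all genes tested. Pair by pair, 4 of the 10 genes were lower in 3 of 3 pairs and 1 was higher in 3 of 3, while 19.2% and 19.6% of all genes were. Hspb8 is among the 4 and, as it was chosen for its fall, adds nothing to this count either.

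Hspb1 (ENSMUSG00000004951), the small heat shock protein HSP25 of mouse, was as scarce as Hspb8 and did not separate the groups. Its level was 1.13, 2.32 and 1.50 CPM in overexpressing libraries 1, 2 and 3, against 1.58, 1.30 and 1.85 CPM in control libraries 1, 2 and 3, from 23 to 43 counts per library. The groups overlapped, and overexpressing replicate 2 was the highest of all. The log2 fold change was 0.00 (SE 0.37; edgeR with the block, adjusted p = 0.998). With this SE, a change of the size seen in Bag3 was not detectable at this depth. Of the 50-base stretches of its transcript, 60.4% also occur in other annotated genes, mainly the pseudogene Hsp25-ps1 (58.9%), so its level is uncertain where reads were split or discarded.

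Bag3 (ENSMUSG00000030847), the nucleotide exchange factor that joins HSPB8 to HSP70, fell in the fit with the block. It stood at 126, 125 and 119 CPM in overexpressing libraries 1, 2 and 3, against 153, 162 and 150 CPM in control libraries 1, 2 and 3. The groups did not overlap, and the spread within each group was small beside the gap. The means were 123 ± 3.79 CPM in overexpressing organoids and 155 ± 6.19 CPM in controls (SD, n = 3 each). The log2 fold change was -0.34, which is 1.26-fold lower, with an SE of 0.08 and an adjusted p of 0.0336 in edgeR with the block. Without the block the SE was 0.09 and the adjusted p was 1. Leaving out pairs 1, 2 and 3 in turn gave adjusted p-values of 0.0931, 0.351 and 0.00856 in the same fit, at log2 fold changes between -0.36 and -0.30 over all 12 fits with the block. No 50-base stretch of the principal Bag3 transcript occurred in a transcript of another annotated gene. Its variation over the replicate numbers did not pass the test of the number (edgeR, adjusted p = 0.725).

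**Figure D2:**
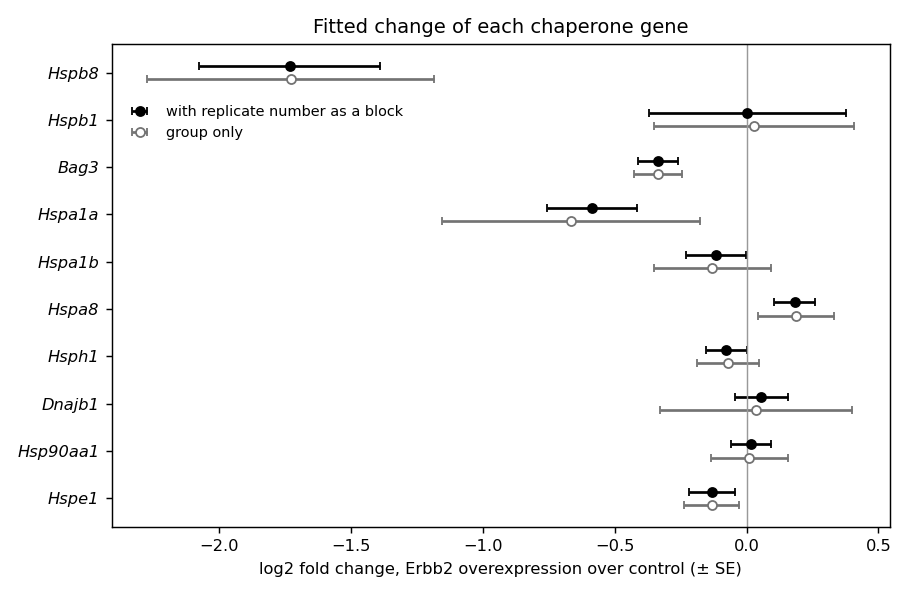
Fitted log2 fold change (horizontal axis) of each chaperone gene, overexpressing over control organoids, with bars of ± 1 SE from the fits with the block (filled) and with the group alone (open). Hspb8 lies farthest from 0, at -1.73, and the SE of Hspa1a and Dnajb1 shrinks most with the block.

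The inducible HSP70 genes Hspa1a (ENSMUSG00000091971) and Hspa1b (ENSMUSG00000090877) encode nearly identical proteins and varied mainly by replicate number. Hspa1a was at 10.2, 17.7 and 8.70 CPM in overexpressing libraries 1, 2 and 3, against 17.7, 31.7 and 8.60 CPM in control libraries 1, 2 and 3. Replicate 2 was the highest and replicate 3 the lowest library in each group, and the groups overlapped. The log2 difference within pairs was -0.80, -0.84 and 0.02 for replicates 1, 2 and 3, so that the pair numbered 3 did not share the lower value of the others. Fitted over all pairs, the log2 fold change was -0.59 (SE 0.17; edgeR with the block, adjusted p = 0.0961). Without replicate 3 it became -0.81 with an adjusted p of 2.37e-05, and the other fits with the block did not call it. Leaving out replicate 3 removed the only pair that was not lower, and fewer libraries then measured the spread. Over all genes 769 were called higher and 320 lower in that fit, beside 298 and 91 with all pairs.

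Hspa1b was at 23.7, 29.0 and 20.5 CPM in overexpressing libraries 1, 2 and 3, against 28.1, 32.5 and 19.5 CPM in control libraries 1, 2 and 3. It kept the same order of replicates as Hspa1a within each group, over a narrower range. Its log2 fold change was -0.12 (SE 0.11; edgeR with the block, adjusted p = 0.676). The transcripts share most of their sequence: 58.8% of the 50-base stretches of Hspa1a occur in Hspa1b and 62.3% of those of Hspa1b occur in Hspa1a. Summed before the fit, an alternative chosen after the data were seen, the counts of both genes gave a log2 fold change of -0.29 (SE 0.11; edgeR with the block, adjusted p = 0.222). Hspa1a also overlaps an annotated antisense gene, Gm20481, and the strand setting is not given in the sources used here, so reads of that gene and of Hspa1a cannot be told apart.

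The 250 bases before both HSP70 genes are printed because nearly the same sequence precedes both genes, whose transcripts also share much of their sequence. They are 98.8% identical and differ at 3 bases, which stand in capitals, 5′ to 3′ in the direction of the gene (RefSeq, GRCm38.p6, minus strand, chr17:34972157-34972406 for Hspa1a and chr17:34959239-34959488 for Hspa1b).
Hspa1a: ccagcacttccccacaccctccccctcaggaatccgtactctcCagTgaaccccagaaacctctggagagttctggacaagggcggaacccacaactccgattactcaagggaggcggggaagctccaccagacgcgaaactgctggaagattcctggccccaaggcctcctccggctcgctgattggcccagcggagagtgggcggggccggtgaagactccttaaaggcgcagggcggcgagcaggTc
Hspa1b: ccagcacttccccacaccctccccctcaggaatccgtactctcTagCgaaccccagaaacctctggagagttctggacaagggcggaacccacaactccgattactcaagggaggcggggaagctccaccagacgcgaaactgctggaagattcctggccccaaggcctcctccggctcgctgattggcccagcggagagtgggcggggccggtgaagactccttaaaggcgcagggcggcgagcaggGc

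Hspa8 (ENSMUSG00000015656), the constitutive HSC70, was the most abundant of the 10 transcripts. It was at 1690, 1962 and 2275 CPM in overexpressing libraries 1, 2 and 3, against 1576, 1724 and 1904 CPM in control libraries 1, 2 and 3. Each overexpressing library lay above the control of its number, while the groups overlapped. The log2 fold change was 0.18 (SE 0.08; edgeR with the block, adjusted p = 0.256). Of its 50-base stretches 74.8% occur in other annotated genes, mainly the pseudogene Gm15459 (70.0%). The small nucleolar RNA genes Snord14c, Snord14d and Snord14e overlap annotated exons of Hspa8 on the same strand. Its level and its values by library are uncertain to that extent.

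Among the partners of HSP70, Hsph1 (ENSMUSG00000029657) encodes HSP110, a nucleotide exchange factor. It was at 113, 142 and 131 CPM in overexpressing libraries 1, 2 and 3, against 129, 144 and 133 CPM in control libraries 1, 2 and 3. The groups overlapped although each overexpressing library lay below its own control, and the log2 fold change was -0.08 (SE 0.08; edgeR with the block, adjusted p = 0.694). Dnajb1 (ENSMUSG00000005483), the main inducible J-domain partner HSP40, was at 41.4, 55.8 and 26.8 CPM in overexpressing libraries 1, 2 and 3, against 35.1, 59.7 and 26.3 CPM in control libraries 1, 2 and 3. In each group replicate 2 was the highest and replicate 3 the lowest, with nearly the same values in both groups. Its log2 fold change was 0.06 (SE 0.10; edgeR with the block, adjusted p = 0.836).

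Hsp90aa1 (ENSMUSG00000021270), the stress-inducible HSP90, was at 294, 299.6 and 351 CPM in overexpressing libraries 1, 2 and 3, against 293, 273 and 372 CPM in control libraries 1, 2 and 3. Replicate 3 was the highest in each group and the groups overlapped; the log2 fold change was 0.02 (SE 0.08; edgeR with the block, adjusted p = 0.944). Of its 50-base stretches 58.5% occur in other annotated genes. Hspe1 (ENSMUSG00000073676), the mitochondrial HSP10 that closes the HSP60 chamber, was at 61.3, 56.4 and 58.8 CPM in overexpressing libraries 1, 2 and 3, against 61.4, 61.5 and 70.6 CPM in control libraries 1, 2 and 3. The groups separated only narrowly, since the highest overexpressing library, at 61.3 CPM, lay next to the lowest control, at 61.4 CPM. The fitted log2 fold change was -0.13 (SE 0.09; edgeR with the block, adjusted p = 0.506). Hspe1 shares 44.8% of its 50-base stretches with other genes and overlaps exons of Hspd1 on the opposite strand, so reads of the pair cannot be told apart without the strand setting.

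Levels of different genes were set side by side per kilobase of the principal transcript. In overexpressing and control organoids Hspa8 averaged 825 ± 122 and 724 ± 68.6 CPM per kilobase, Hsp90aa1 95.9 ± 9.53 and 95.3 ± 16.0, Hspe1 76.0 ± 3.16 and 83.3 ± 6.84, and Bag3 48.0 ± 1.48 and 60.6 ± 2.42 (SD, n = 3 each). Lower in the order came Hsph1 at 33.9 ± 3.89 and 35.6 ± 2.05 CPM per kilobase, Dnajb1 at 13.8 ± 4.84 and 13.5 ± 5.77, Hspa1b at 8.71 ± 1.54 and 9.52 ± 2.36, and Hspa1a at 4.11 ± 1.63 and 6.51 ± 3.91. Hspb1 at 1.83 ± 0.674 and 1.74 ± 0.307 and Hspb8 at 0.544 ± 0.395 and 1.74 ± 0.721 CPM per kilobase came last. The order of the means was the same in both groups, with Hspb1 and Hspb8 nearly equal in controls. In controls, neighbours whose means lay closer than the larger of their SDs were Hsp90aa1 and Hspe1, Dnajb1 and Hspa1b, Hspa1b and Hspa1a, and Hspb1 and Hspb8. Among the 9 genes other than Hspb8, no neighbours lay that close in the overexpressing organoids. Shared reads can shift the levels of the genes with close copies, so the order holds for the counts as deposited.

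**Figure D3:**
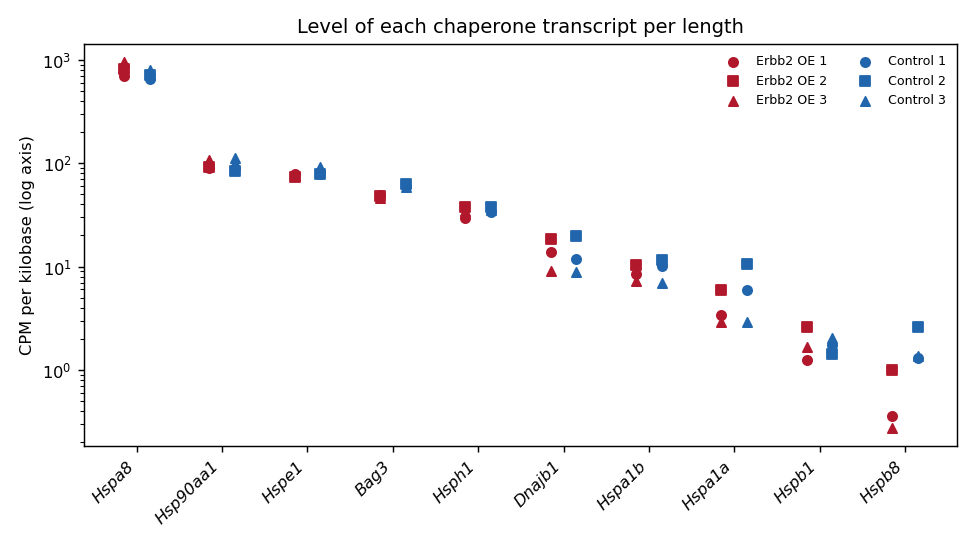
CPM per kilobase of principal transcript (log axis) of the 10 genes in order of their level, with overexpressing libraries (red) left of controls (blue) and marker shapes for the replicate number. Hspa8 stands apart at the top, and Hspb8 lies below Hspb1 in the overexpressing libraries, with means of 0.544 and 1.83 CPM per kilobase.

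Several of the chaperone genes differed between the replicate numbers. In the fit with the group and the number, 5 of the 10 genes passed the test of the number (edgeR quasi-likelihood F test), against 29.0% of all genes, or 3648. The adjusted p-values were 0.000108 for Dnajb1, 0.000712 for Hspa1a, 0.0154 for Hspa1b, 0.0277 for Hsp90aa1 and 0.0380 for Hspa8. The 5 genes did not share one pattern. On the log2 scale Hspa1a, Hspa1b and Dnajb1 stood 0.82, 0.25 and 0.60 above replicate 1 in replicate 2, with values of -0.64, -0.37 and -0.53 in replicate 3 relative to replicate 1. Hspa8 and Hsp90aa1 were highest in replicate 3, at 0.35 and 0.30 above replicate 1. Hsph1, Hspe1, Bag3 and Hspb1 did not pass, with adjusted p-values of 0.162, 0.616, 0.725 and 0.743 in the same edgeR fit.

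Immediate early genes, which cells switch on within minutes of handling or stimulation, moved with the same numbers. All 14 listed immediate early genes passed the test of the replicate number. Their summed level was 5741, 8246 and 2831 CPM in overexpressing libraries 1, 2 and 3, against 5519, 9241 and 2808 CPM in control libraries 1, 2 and 3. Replicate 2 thus had the highest and replicate 3 the lowest sum in each group, the order also seen for Hspa1a, Hspa1b and Dnajb1. Between the groups 1 of the 14 rose with the block, Ier3, which regulates cell survival, at 52.3, 55.9 and 77.7 CPM in overexpressing libraries 1, 2 and 3, against 30.6, 32.6 and 46.5 CPM in control libraries 1, 2 and 3. Its log2 fold change was 0.76 (edgeR adjusted p = 0.00124 with the block and 1 without it), and unlike the sum it was highest in replicate 3. Mitochondrial transcripts made up 8.01%, 11.1% and 6.33% of counts in overexpressing libraries 1, 2 and 3, against 8.14%, 10.6% and 8.05% in control libraries 1, 2 and 3. Whether handling or RNA quality had a part in the chaperone values was not tested.

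**Figure D4:**
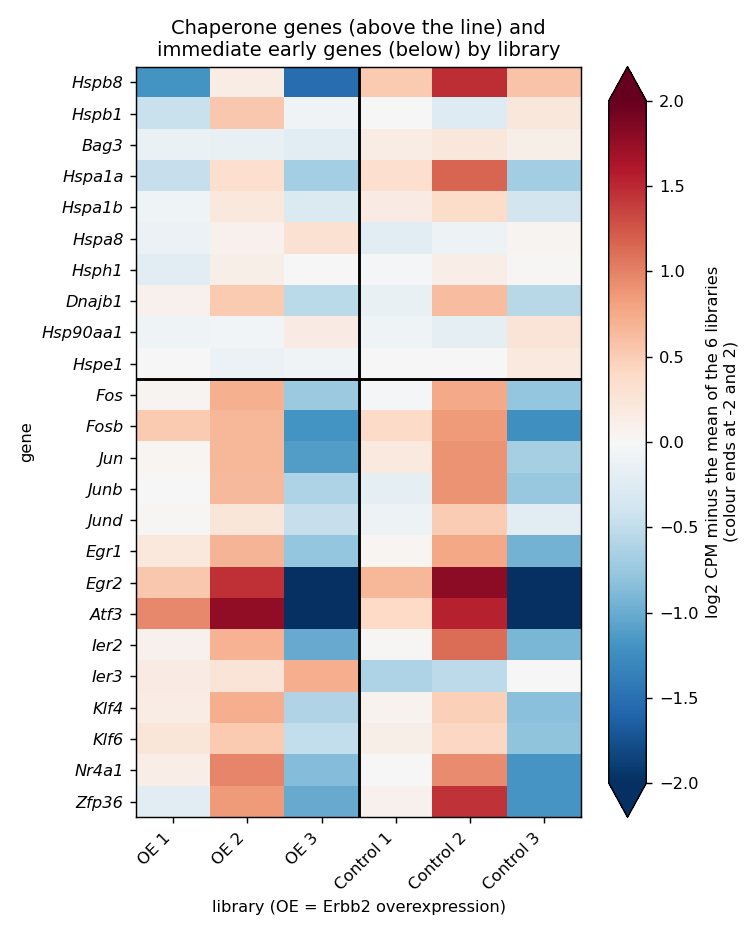
Difference of log2 CPM from the mean of the 6 libraries (colour, ending at -2 and 2) for the 10 chaperone genes above the line and 14 immediate early genes below it, with overexpressing libraries left of controls. Hspa1a, Hspa1b and Dnajb1 are high in replicate 2 and low in replicate 3 in both groups, as are the immediate early genes other than Ier3, while Hspb8 is lower in the overexpressing libraries and Bag3 slightly so.

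Genes with the library pattern most like that of Hspb8 were sought by the root mean square difference of centred log2 CPM over the 6 libraries. The 10921 candidates were tested genes with a mean log2 CPM of 1 or more and no predicted-gene or pseudogene name. Hspb8 itself lay below this floor. Because Hspb8 was chosen for its fall, the genes nearest to it were bound to be lower in the overexpressing libraries too. Their log2 fold changes with the block lay between -1.47 and -1.07. The 5 nearest were Chad, which encodes a matrix protein (0.401), ccdc198 (0.401), the histone gene Hist1h2be (0.418), Ldhb, a lactate dehydrogenase subunit (0.429), and the transcription factor gene Ebf3 (0.449). Chad, for example, was at 9.29, 14.6 and 7.58 CPM in overexpressing libraries 1, 2 and 3, against 16.6, 54.1 and 17.3 CPM in control libraries 1, 2 and 3, with replicate 2 the highest in each group as for Hspb8. The distances are not compared between Hspb8 and Hspa1a, which had 12 to 83 and 200 to 562 counts per library. For Hspa1a the nearest were the glycosyltransferase genes Ugt8a (0.127), Ugt1a7c (0.154) and Ugt1a1 (0.156), the last 2 of which share exons in a gene cluster. For Hsph1, whose profile was nearly flat, they were Rab5c (0.0303), Papss1 (0.0365) and Cnot8 (0.0375). The same genes were named under relative log expression scaling.

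Beyond the 10 genes, 80 further genes of the chaperone system in 8 lists were read, of which 71 could be tested. Of these 71 edgeR called 0 higher and 0 lower, with the block as without it, while 11 (15.5%) had an unadjusted p under 0.05 with the block and 4 (5.63%) without it. Among all genes tested the shares were 16.8% and 3.33%. In the fit with the block they had a median of -0.06 on the log2 scale, beside -0.01 for all genes, with 21 genes above 0 and 50 below. Of 7 other small heat shock proteins 2 could be tested, and Hspb3, Hspb7, Hspb9 and Cryaa had 0 counts in every library. Hspb6, or HSP20, had a log2 fold change of 0.06 and Cryab, the alphaB-crystallin, one of -0.21 (edgeR with the block, adjusted p = 0.841 and 0.730). Hspb6 was measured at 18.4, 21.6 and 28.6 CPM in overexpressing libraries 1, 2 and 3, against 19.2, 18.6 and 27.6 CPM in control libraries 1, 2 and 3, and the groups overlapped.

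Of 13 other HSP70 proteins and exchange factors 10 were tested and 0 called with the block. Bag1, an exchange factor that binds HSP70 like Bag3, had a log2 fold change of -0.18 and the exchange factor gene Hspbp1 one of 0.35 (edgeR with the block, adjusted p = 0.252 and 0.305). Of 12 other cytosolic J-domain proteins, all tested, 0 were called. Dnajc2, which works at the ribosome, had a log2 fold change of -0.30 and Dnaja1, a partner of HSC70, one of -0.25 (adjusted p = 0.0706 and 0.143 in the same edgeR fit). Of the 14 HSP90 and co-chaperone genes 0 were called. Fkbp5, a co-chaperone of steroid receptors, had 2.70, 3.00 and 3.25 CPM in overexpressing libraries 1, 2 and 3, against 4.22, 4.17 and 7.62 CPM in control libraries 1, 2 and 3. Its log2 fold change of -0.84 (SE 0.24) had an adjusted p of 0.0924 in edgeR with the block, and that of Ahsa1, an activator of the HSP90 ATPase, was -0.24 with an adjusted p of 0.142.

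The lists of mitochondrial chaperones, of CCT and prefoldin, and of heat shock factors also held 0 called genes. Of 9 mitochondrial chaperone genes, Grpel2, an exchange factor of mitochondrial HSP70, had a log2 fold change of 0.23 and Trap1, the mitochondrial HSP90, one of 0.11 (edgeR with the block, adjusted p = 0.265 and 0.534). Of 14 genes of the CCT chaperonin and prefoldin, which fold actin and tubulin, 12 lay below 0, at a list median of -0.08. Pfdn5 was at -0.13 and Pfdn4 at -0.26 (adjusted p = 0.435 and 0.453 in the same edgeR fit). This lean was not particular to the list. Below 0 also lay 10 of 12 J-domain, 11 of 14 HSP90 and co-chaperone, and 8 of 10 other HSP70 and exchange factor genes, but 3 of 9 mitochondrial genes. Among the 4 heat shock factor genes Hsf2 had a log2 fold change of -0.36 and Hsbp1, which encodes a heat shock factor binding protein, one of -0.12 (edgeR with the block, adjusted p = 0.150 and 0.487). Hsf1, named here for its role at these promoters and outside the rule for named genes, was at 53.3, 40.9 and 51.7 CPM in overexpressing libraries 1, 2 and 3, against 51.8, 44.5 and 58.2 CPM in control libraries 1, 2 and 3. Its groups overlapped and its adjusted p was 0.714 in edgeR with the block.

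Among the 7 partners of HSPB8 and BAG3 in selective autophagy that were read, 6 were tested and 0 were called. Flna encodes filamin A, an actin cross-linker. It was at 323, 259 and 264 CPM in overexpressing libraries 1, 2 and 3, against 232, 134 and 239 CPM in control libraries 1, 2 and 3. The groups did not overlap, and control replicate 2 was the lowest library. Among the genes named from the lists, the groups also did not overlap for Hspbp1, Dnajc2, Ahsa1, Fkbp5 and Hsf2. Like Flna, these were named for the smallest p in this contrast, so the choice itself favoured separation. Their separation therefore cannot be read against the 8.75% of all tested genes that separated the groups in either direction. Stip1, Chordc1 and Cct3, list genes outside the rule for named genes, also separated the groups. For Flna the fitted change on the log2 scale was 0.52 (SE 0.14; edgeR with the block, adjusted p = 0.118). Flnc, the muscle filamin that this complex sends to autophagy, stood at 0.83 on that scale with an SE of 0.29 (same edgeR fit, adjusted p = 0.189). Flnc reached 21.9 CPM in overexpressing replicate 3 and lay between 4.11 and 7.53 CPM in the other 5 libraries. The ligase gene Stub1 and the autophagy receptor gene Sqstm1, named for their roles and outside the rule for named genes, had log2 fold changes of 0.02 and 0.17 (adjusted p = 0.931 and 0.410 in edgeR with the block).

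**Figure D5:**
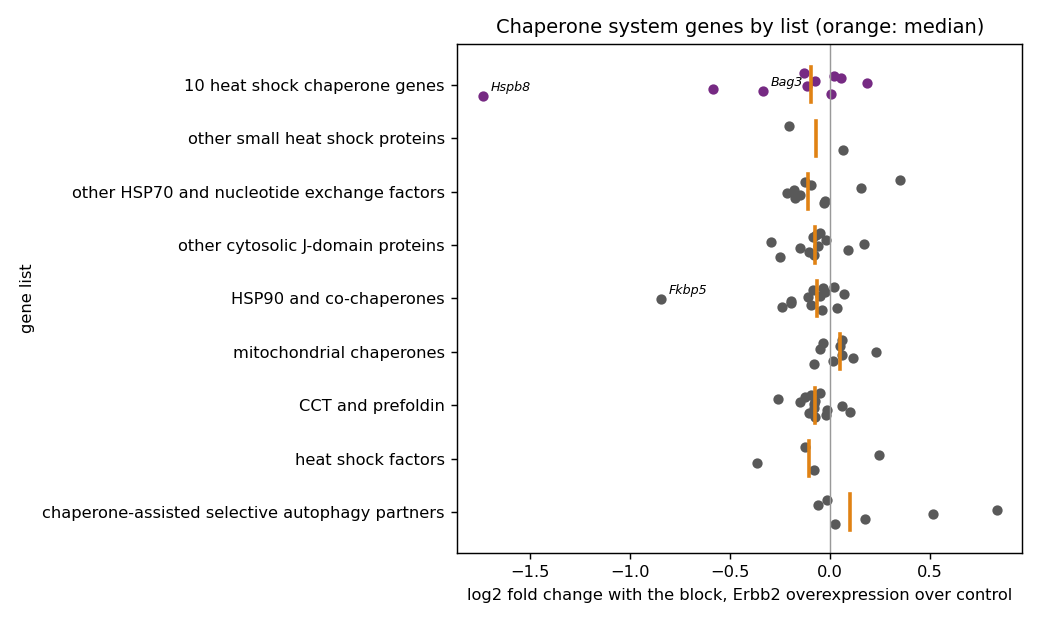
Log2 fold change with the block (horizontal axis, overexpressing over control organoids) of each tested gene in the 10 chaperone genes (purple) and 8 lists of the chaperone system (grey), with orange bars at list medians. Most points lie within 0.3 of 0 and list medians lie near 0; Hspb8 and Fkbp5 lie far to the left, and the filamin genes Flnc and Flna, at 0.83 and 0.52, to the right.

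Markers of cell types were read to see what the libraries held, since HSPB8, BAG3 and the filamins are best known from muscle. The 6 epithelial markers were abundant, with sums of 8161 to 8511 CPM in overexpressing organoids and 6859 to 8489 CPM in controls. Of 7 smooth muscle markers 0 had enough counts to be tested. Their sum was 0.208 to 0.510 CPM in overexpressing organoids and 0.0563 to 0.556 CPM in controls, and Des and Actg2 had 0 counts in every library. The defining markers of smooth muscle were thus at or near 0 in the libraries in which Hspb8 was measured. Of 7 fibroblast markers 1 was tested, with sums of 1.35 to 1.70 CPM in overexpressing organoids and 0.695 to 1.42 CPM in controls, and Col1a2, Dcn, Lum and Pdgfrb had 0 counts.

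Immune markers summed to 18.4 to 73.3 CPM in overexpressing organoids and 20.3 to 53.7 CPM in controls, nearly all from Cd68, with Adgre1 at 0 counts. Endothelial markers summed to 0.566 to 10.2 CPM in overexpressing organoids and 1.07 to 1.97 CPM in controls, and the highest value came from Tek at 8.95 CPM in overexpressing replicate 3. Of the gastric lineages, pit cell markers summed to 85.8 to 194 CPM in overexpressing organoids and 31.5 to 74.5 CPM in controls, with 0 of 3 tested genes called. These sums did not overlap and came nearly all from Tff1. The groups overlapped for Gkn1 and Gkn2, which reached at most 4.83 and 2.38 CPM. They did not for Muc5ac, which was too scarce to be tested and highest in overexpressing replicate 2, at 3.17 CPM. Chief cell markers summed to 60.4 to 84.6 CPM in overexpressing organoids and 66.0 to 110 CPM in controls, with Lipf near 0 and 0 of 3 tested genes called. Parietal cell markers summed to 180.0 to 259 CPM in overexpressing organoids and 159 to 258 CPM in controls, mostly from Kcnq1, with Atp4b at 0 counts; this list also held Gif, which mouse chief cells express. The part of changes in cell type in the Hspb8 and Bag3 values was not tested.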

How the data were processed

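RNA of 6 libraries was measured by sequencing. The values are raw counts per Ensembl gene as deposited, per the file headers in a column of matched counts, in 1 table per library. Per the submitters' processing notes, the reads were handled with STAR and featureCounts on GRCm39. Not given in the sources used here are versions, annotation, strand setting and the treatment of reads that match several genes. Symbols were found for 25424 of 25528 IDs in the mouse annotation table. Transcript lengths and overlaps came from principal transcripts of an annotation of the earlier assembly GRCm38, and promoter windows from RefSeq, GRCm38.p6.

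Genes were filtered by filterByExpr (minimum count 10), scaled by trimmed mean of M values (TMM) and tested over all 12593 genes by the quasi-likelihood F test (two-sided) of edgeR 4.0.16 in R 4.3.3, with Benjamini-Hochberg adjusted p under 0.05 as the threshold. The design had the group alone; the replicate number as a block was an alternative, and same-numbered libraries deviated together (correlations of 0.333, 0.660 and 0.707), which is where the pairing comes from, as the labels give only numbers. The replicate number was tested in the fit with both terms. Each SE was computed from the fold change and its F statistic, as the absolute log2 value over the root of F. CPM use TMM-scaled totals. DESeq2 1.42.0 and limma 3.58.1 (voom), other scalings and filters, and left-out libraries were alternatives. The fits were tested on simulated data.

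The 10 genes and the lists were chosen with earlier results of these data known. Named are the 10 genes, from each list the genes called with or without the block, or else the 2 with the smallest p with the block, and the nearest profiles. A gene of the autophagy partner list and one of the immune marker list are not reported here and are left out of the list counts, sums and medians.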

Additional observations from a re-analysis of the deposited data

How the results depend on the processing

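The call of Bag3 rests on the replicate block, and depth limits Hspb8 and Hspb1, which had 12 to 83 and 23 to 43 counts per library. Without the block 0 genes were called higher and 0 lower; DESeq2 called 28 and 6, and leaving out 1 library gave 0 to 1 higher and 0 lower, in each case with 0 of the 9 tested chaperone genes. With the replicate block 298 genes were higher and 91 lower. These counts were 312 and 83 with relative log expression scaling, 288 and 93 with upper-quartile scaling, 366 and 96 in DESeq2, 288 and 88 in limma voom, 272 and 73 with no filter, 306 and 82 with at least 1 CPM in 3 libraries, 298 and 91 without mitochondrial genes and Erbb2, and 312 and 93 in the legacy form of the fit. Each of these called 1 chaperone gene lower, Bag3, and 0 higher. The upper-quartile and 1 CPM settings with the block were chosen after seeing the data. With the block and without replicate 1, 2 or 3, 173, 122 and 769 genes were higher, 40, 24 and 320 lower, and 0, 0 and 2 chaperone genes lower, the 2 being Bag3 and Hspa1a without replicate 3; fewer libraries then measure the spread. The fitted change of Hspb8 ranged from -2.43 to -1.36 over the 15 fits without the block and from -2.04 to -1.54 over the 12 with it. Hspb8 was chosen for its fall and its groups did not overlap, so its sign was bound to hold. The ranges only describe the size of the change. The count of genes called for the replicate number was 3648, 3607 with relative log expression scaling and 3545 in limma voom, with 5 chaperone genes in each.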
